A study of Arabidopsis thaliana with 12 samples.

Results

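The 94 Arabidopsis thaliana genes described as heat shock proteins or heat shock factors were compared between salt and control medium, and between wild type and a line called 6-6, in root tips. They were taken from the 33557 genes of the deposited tables by their description, which had to contain heat shock or HSP20 in any letter case and not DNAJ. Of the 94 genes, 43 were small heat shock proteins (small HSPs) or other genes of the HSP20-like family, 18 HSP70, 5 HSP90, 3 HSP60 and 1 HSP100 (HSP101). A further 17 were heat shock factors, 1 was the factor-binding protein HSBP and 6 were pseudogenes.

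RNA was sequenced from 12 samples in 4 groups of 3, namely wild type (WT) on half-strength Murashige and Skoog medium (MS), WT on NaCl, 6-6 on MS and 6-6 on NaCl. All seedlings were 8 days old, had long days (light 16 h, dark 8 h, 22 °C) and stood on the final medium for 24 h before about 1 cm of root tip was taken. The labels name no heat treatment. Neither the NaCl concentration, nor the genotype of 6-6, nor any pooling of seedlings is given in the sources used here. Levels were deposited by the authors as 1 value per group and gene in FPKM, a fragment count corrected for the length of the gene's transcripts and the size of the library, so every level below is the authors' group value, without an error of its own. A gene was called, and is said to have risen or fallen, where the authors' q-value (their p-value adjusted over all genes tested in that table) was below 0.05. The labels do not say that the samples of a group were separate cultures, so these p-values may measure technical spread only.

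Heat shock factors are transcription factors that bind heat shock elements, which are inverted repeats of the block GAA, in the promoters of chaperone genes. In plants, class A factors activate transcription, while most class B factors act as repressors. Small HSPs hold unfolding proteins in a soluble state, HSP70 and HSP90 fold and stabilise client proteins with the use of ATP, HSP60 forms folding chambers in mitochondria and plastids, and HSP101 pulls proteins out of aggregates. Many small HSP genes are almost silent in unstressed vegetative tissue, whereas the constitutive HSP70 and HSP90 genes are among the more abundant transcripts of growing cells.

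ITPK4, the gene named in the series title, was listed in the authors' deposited tables at 24.9 FPKM in WT and 2.95 in 6-6 on MS, and at 27.7 and 2.75 on NaCl. None of 10 root marker genes was at 0 in any group, and their summed level was 602, 558, 562 and 510 FPKM in WT on MS, WT on NaCl, 6-6 on MS and 6-6 on NaCl. CASP1 alone gave 340, 259, 318 and 212 FPKM of these sums, and single markers moved in different directions. On NaCl WOX5 and EXPA7 rose and CASP1 fell in both lines. Between the lines on NaCl, WOX5 was called higher and SMB and RHD6 lower in 6-6. The summed level of 4 markers of green tissue, of which none was at 0, was 53.5, 184, 33.8 and 110 FPKM in the same order, higher on NaCl in both lines. The median log2 ratio of the organelle genes was 1.33 for 6-6 over WT on MS and -1.67 for NaCl over MS in 6-6, against -0.02 for NaCl over MS in WT. These values set the 6-6 MS group apart. The part of green tissue or organelle RNA in the results below was not tested, and in whole root tips more cells of a type and more RNA per cell cannot be told apart.

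The heat shock genes ranged in each group from 0 FPKM to the level of HSC70-1, a constitutive cytosolic HSP70. Of the 94, 73 were tested by the authors in at least 1 table and 68 in all 4, and the 21 never tested were listed at no more than 0.503 FPKM in any of the 4 tables. On the length-corrected FPKM scale the HSP70 genes together reached 1970 FPKM in WT on MS, of which HSC70-1 gave 884. The 5 HSP90 genes summed to 470 FPKM, the 3 HSP60 genes to 258 and the 17 factors to 191. The 43 small HSP genes summed to 530 FPKM, but their median was 2.01 FPKM and 8 of them were listed at 0. Most of their sum came from genes of the HSP20-like family that lie outside the classical small HSPs, such as AT4G02450 at 138 FPKM, AT5G58740 at 92.1 and BOB1, which is needed for heat tolerance and growth, at 50.9. The rule therefore joined low, stress-type small HSPs with abundant genes of the same protein fold. HSBP, a small protein that binds heat shock factors, stood at 249 FPKM in WT on MS and at 241, 251 and 235 FPKM in WT on NaCl, 6-6 on MS and 6-6 on NaCl.

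**Figure D1:**
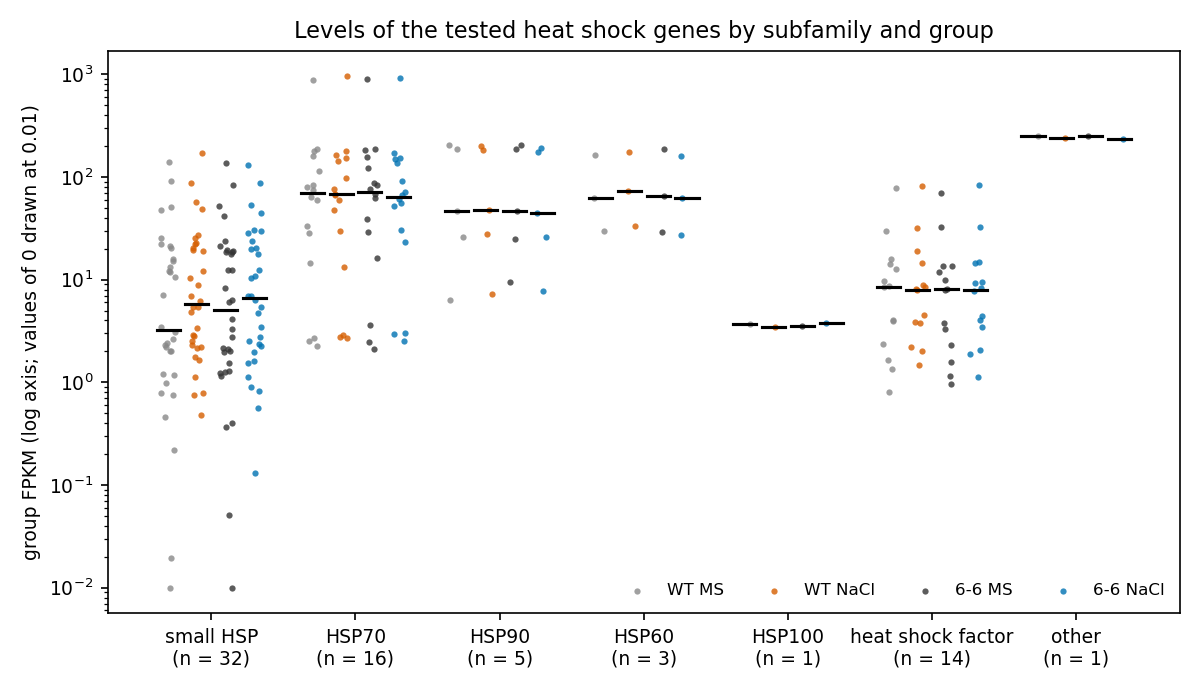
Group FPKM (log axis) of the heat shock genes tested in at least 1 of the 4 tables, by subfamily and without the pseudogenes; points are genes, colours the 4 groups, horizontal lines the medians, and values of 0 are drawn at 0.01. The HSP70, HSP90 and HSP60 genes sat at similar levels in all 4 groups, and the small HSPs spread over the widest range.

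In WT, NaCl changed 17 of the 71 tested heat shock genes, of which 15 rose and 2 fell. That is 23.9% of those tested, against 21.8% of all 19798 genes tested in the same table. The share called in either direction was thus near the background. By direction it was not alike: among all tested genes 2235 rose and 2082 fell (11.3% and 10.5%), whereas the called heat shock genes mostly rose. In 6-6, 17 of 70 tested heat shock genes were called (24.3%), 12 higher and 5 lower, against 24.1% of all genes, 13.7% higher and 10.4% lower. The median log2 ratio of the heat shock genes was 0.07 in WT and 0.06 in 6-6, beside 0.01 and 0.03 over all tested genes. Both comparisons use different samples, and 10 genes rose in both lines, which is 66.7% of those that rose in WT and 83.3% of those that rose in 6-6. Over all genes, 1574 rose in both lines, 70.4% of the risers of WT and 58.2% of those of 6-6. The 10 genes were 7 small HSPs, 2 factors and 1 HSP70. HSFC1 fell in both lines, and 0 genes were called in opposite directions.

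The deposited p-values and the deposited test statistics do not always give the same calls. Read as a normal deviate and adjusted over all tested genes, the statistic did not pass for HSFA8, AT1G76440, AT2G29500, AT4G02450, AT4G21870, mtHsc70-1, AT5G37670 and AT5G54660 in WT on NaCl, or for AT1G54050, HSFA8, AT2G27140 and AT5G47600 in 6-6 on NaCl. Between the lines it did not pass for HSP70 and AT5G47600 on MS, or for AT2G29500, AT4G02450, HSP17.6A and HSFB2A on NaCl. For HSP17.6A in the salt tables no statistic could be read. The calls of these genes below rest on the authors' p-values.

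**Figure D2:**
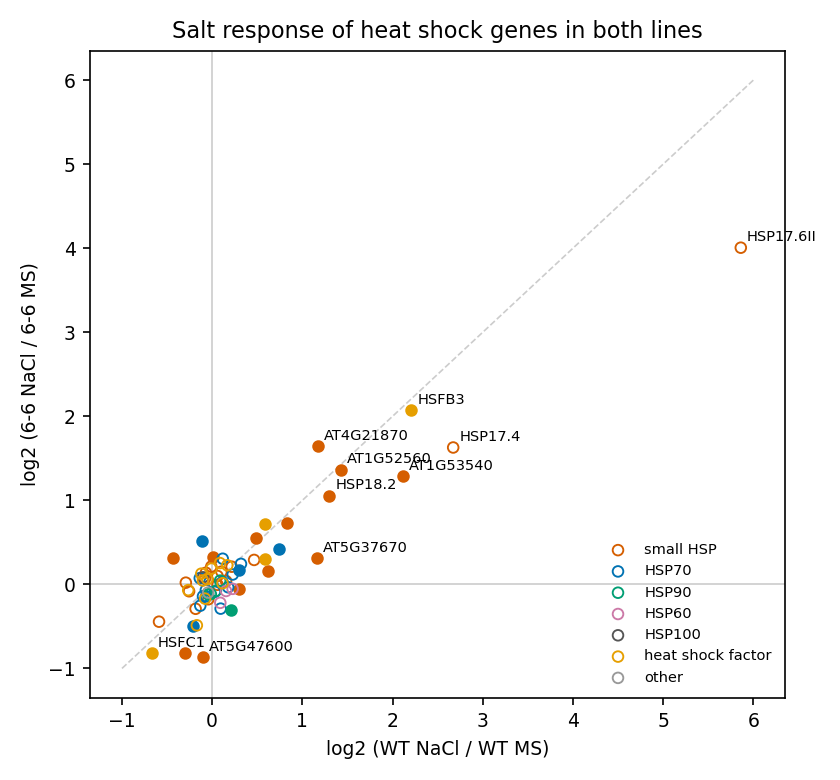
Log2 ratio of NaCl over MS in WT (x axis) and in 6-6 (y axis) for the 69 heat shock genes with a ratio in both lines; filled points were called in at least 1 of the lines, colours are subfamilies, and the dashed line marks equal ratios. HSFB3 (2.20 and 2.07) lay near that line, and HSP17.6II and HSP17.4 lay farthest to the right but were not called.

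Of the factors, 14 of 17 were tested, and 3 rose and 1 fell on NaCl in WT while 2 rose and 1 fell in 6-6. These are 28.6% and 21.4% of the tested factors, against 21.8% and 24.1% of all genes. HSFB3, a class B factor on chromosome 2 (17381723 to 17382577 in TAIR10), had the largest rise among them. It went from 0.813 to 3.75 FPKM in WT and from 0.961 to 4.05 in 6-6, log2 ratios of 2.20 and 2.07 (q = 0.000482 and 0.000441 in the authors' deposited tables). HSFB3 was thus low on MS and several-fold higher on NaCl in both lines. HSFA8, a class A factor, rose from 1.35 to 2.03 FPKM in WT (log2 ratio 0.59) and from 1.16 to 1.90 in 6-6 (0.71). HSFC1, the single class C factor of Arabidopsis, fell from 14.2 to 8.93 FPKM in WT and from 13.6 to 7.71 in 6-6, log2 ratios of -0.67 and -0.82. HSFC1 shares its locus in the files with another gene, so reads of either could enter its value.

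HSFB2A, a class B repressor, stood at 12.8 FPKM in WT on MS and 19.2 on NaCl, where it rose (log2 ratio 0.59, q = 0.000482 in the authors' deposited table). In 6-6 it stood at 11.9 and 14.6 FPKM (0.31, q = 0.0603 in the authors' deposited table) and was not called. On NaCl, HSFB2A was lower in 6-6 than in WT, at 15.0 against 19.4 FPKM (log2 ratio -0.38, q = 0.0204 in the authors' deposited table). It was the single factor called between the lines, in 1 of 14 tested on NaCl and none of 14 on MS, where no factor had a p-value below 0.05 in the authors' deposited table either.

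The other 10 tested factors were not called on NaCl in either line. HSF4, a class B factor and the most abundant of the 17, stood at 77.6, 82.4, 69.6 and 83.0 FPKM in WT on MS, WT on NaCl, 6-6 on MS and 6-6 on NaCl. HSFB4, a class B factor of root development, followed at 29.5, 31.9, 32.3 and 32.6 FPKM in that order. HSFA1D, 1 of the master activators of the heat response, stood at 15.9, 14.6, 13.6 and 14.9 FPKM. Its relatives HSF3 (8.52, 7.94, 7.98 and 8.24 FPKM) and HSF1 (3.98, 3.83, 3.30 and 3.45 FPKM) also stayed within a narrow range. HSFA7A ran from 8.06 to 9.88 FPKM and HSFA4A from 8.18 to 9.32 FPKM over the groups. HSFA2, which is strongly induced by heat and sustains the response, was low at 1.67, 1.48, 1.59 and 1.13 FPKM. HSFA9, known from seeds, was listed at 0 in every group, and HSFA3 and HSFA6A were too low to be tested.

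Small HSPs made up most of the calls on NaCl. There, 10 of 31 tested rose and 1 fell in WT, and 8 of 30 rose and 2 fell in 6-6. Of the tested small HSPs 35.5% were called in WT and 33.3% in 6-6, against 21.8% and 24.1% of all genes, and they made up 31 of the 71 heat shock genes tested in WT. By direction, 11.3% of all tested genes rose and 10.5% fell in WT, and 13.7% rose and 10.4% fell in 6-6. The median log2 ratio of the small HSPs was 0.13 in WT, with 19 of 30 ratios above 0, and 0.16 in 6-6, with 21 of 29 above 0. Over all tested genes, 10282 of 19770 ratios were above 0 in WT and 10739 of 19663 in 6-6. A gene near 0 on MS could enter these counts through its NaCl level, as HSP17.6II did. AT1G76770 was tested on NaCl over MS in WT (log2 ratio 1.80) but not in 6-6 (-1.60). The counts above 0 are therefore a description only. The 7 small HSPs that rose in both lines were AT1G52560, AT1G53540, AT2G19310, AT2G29500, AT4G21870, HSP17.6A and HSP18.2.

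HSP17.6A (chromosome 5, 3884107 to 3884737), a cytosolic small HSP that RefSeq notes as induced by heat and osmotic stress and in late seed development, was listed at 0 FPKM on MS in both lines. On NaCl it was at 2.50 FPKM in WT and 1.13 in 6-6, and it was called in both (q = 0.000482 and 0.000441 in the authors' deposited tables); no fold can be given against 0. Between the lines on NaCl it was lower in 6-6, at 1.15 against 2.53 FPKM in that table (log2 ratio -1.14, q = 0.0143 in the authors' deposited table). Its neighbour HSP17.6II, a class II small HSP 1168 bases away and 87.2% identical in coding sequence, was listed at 0.0193 FPKM on MS and 1.12 on NaCl in WT, and at 0.0511 and 0.821 in 6-6. HSP17.6II had the largest ratios of all (log2 5.86 and 4.01) but was not called (p = 0.14 and 0.181 in the authors' deposited tables).

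AT1G53540 (chromosome 1, 19980462 to 19981109) rose from 0.785 to 3.39 FPKM in WT and from 1.14 to 2.79 in 6-6, log2 ratios of 2.11 and 1.29 (q = 0.000482 and 0.00516 in the authors' deposited tables). HSP17.4, its closest relative here at 85.6% coding identity, had larger ratios at similar levels and was not called. It was at 0.754 and 4.81 FPKM in WT and 1.54 and 4.76 in 6-6 (log2 ratios 2.67 and 1.63, q = 0.0617 and 0.068 in the authors' deposited tables), and the files give it a locus shared with another gene. HSP18.2, a classical heat-inducible small HSP, rose from 2.21 to 5.43 FPKM in WT and from 3.30 to 6.87 in 6-6, log2 ratios of 1.29 and 1.06. AT1G52560 rose from 2.30 to 6.17 and from 2.12 to 5.46 FPKM, log2 ratios of 1.42 and 1.37. AT4G21870 rose from 2.41 to 5.43 and from 2.03 to 6.32 FPKM, log2 ratios of 1.17 and 1.64. These small HSPs were all below 4 FPKM on MS and below 7 on NaCl. AT2G19310 and AT2G29500 began higher and rose less: the first from 15.2 to 27.1 FPKM in WT and from 18.5 to 30.7 in 6-6 (log2 ratios 0.83 and 0.73), the second from 16.0 to 22.3 and from 19.6 to 28.7 (0.48 and 0.55).

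**Figure D3:**
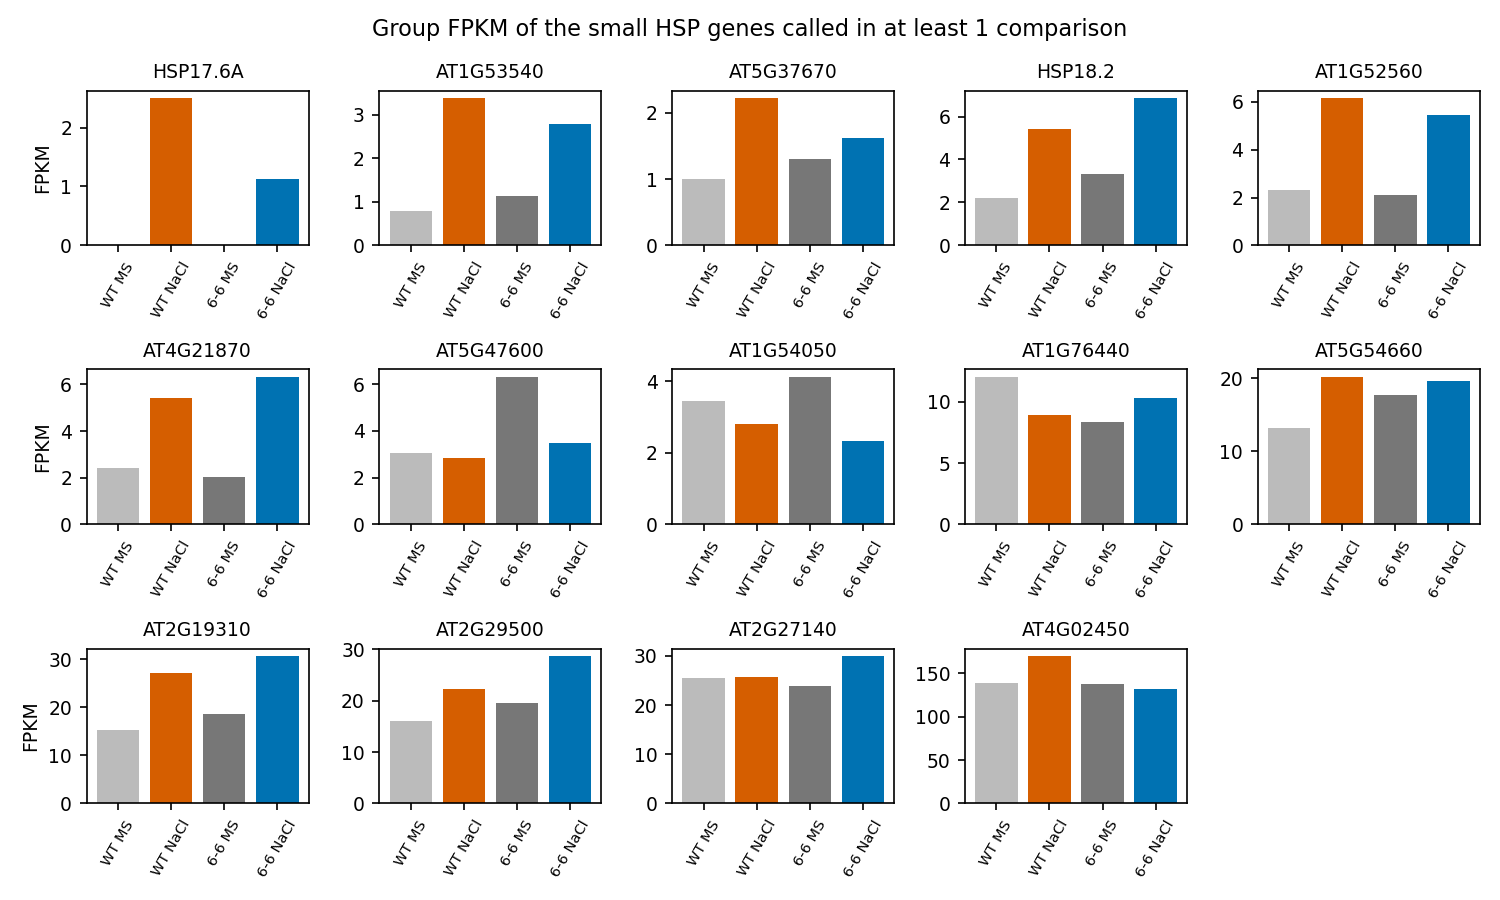
Group FPKM (linear axis from 0, own scale per panel) of the 14 small HSP genes called in at least 1 comparison; bars are the authors' group values from the salt tables, without error bars because each group has 1 value. HSP17.6A is at 0 on MS in both lines, and AT5G47600 is highest in 6-6 on MS at 6.31 FPKM.

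Other genes counted with the small HSPs were called on NaCl in 1 line only, and no test of the difference in salt response could be run on group values. AT5G37670 rose in WT, from 0.995 to 2.22 FPKM (log2 ratio 1.16, q = 0.0468 in the authors' deposited table), and had a log2 ratio of 0.31 without a call in 6-6, with 1.62 FPKM on NaCl. AT5G54660 rose from 13.2 to 20.2 FPKM in WT and was at 17.7 and 19.7 in 6-6. AT4G02450 is the co-chaperone P23-1, of the same HSP20-like family but far more abundant. It rose from 138 to 170 FPKM in WT (log2 ratio 0.29) and was at 137 and 131 in 6-6. The files give AT4G02450 a locus shared with another gene, so its values could hold reads of either. On NaCl the gene was also called between the lines: AT4G02450 was at 134 FPKM in 6-6 against 172 in WT (log2 ratio -0.36, q = 0.0152 in the authors' deposited table). AT1G76440 fell from 12.0 to 8.90 FPKM in WT and was at 8.34 and 10.3 in 6-6. In 6-6, AT2G27140 rose from 23.9 to 30.0 FPKM, with 25.5 and 25.7 in WT. AT1G54050 fell from 4.13 to 2.34 FPKM in 6-6, with 3.46 and 2.80 in WT.

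Sequence upstream of these genes was read for the heat shock element from the 250 bases before each RefSeq start in TAIR10.1, for 88 heat shock genes and 26682 protein-coding genes. The motif searched was 3 blocks, GAANNTTCNNGAA or its reverse complement TTCNNGAANNTTC, so that both strands were covered. It was found in 105 of all promoters (0.394%) and in 4 of the 88 (4.55%), shown here because they are the members with the full element. They are AT1G53540 (chr1:19980049-19980298, plus strand), HSFA2 (chr2:11135374-11135623, plus strand), HSP17.4 (chr3:16984868-16985117, minus strand) and HSFA7A (chr3:19264891-19265140, plus strand). HSP17.6A (chr5:3884839-3885088, minus strand) is added as the gene listed at 0 on MS. Each is written 5′ to 3′ on the strand of its gene, and capitals mark the 3-block element, or in HSP17.6A a match of 2 blocks.
AT1G53540: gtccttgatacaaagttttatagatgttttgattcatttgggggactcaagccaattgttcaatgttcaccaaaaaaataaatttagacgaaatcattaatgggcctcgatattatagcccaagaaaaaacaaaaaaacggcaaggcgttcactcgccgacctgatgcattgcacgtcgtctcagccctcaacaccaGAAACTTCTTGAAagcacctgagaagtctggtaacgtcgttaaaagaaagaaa
HSFA2: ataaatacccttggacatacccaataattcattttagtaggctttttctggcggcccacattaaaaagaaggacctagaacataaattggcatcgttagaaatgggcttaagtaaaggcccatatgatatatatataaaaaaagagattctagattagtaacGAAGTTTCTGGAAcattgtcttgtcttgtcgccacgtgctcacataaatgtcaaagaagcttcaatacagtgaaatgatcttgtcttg
HSP17.4: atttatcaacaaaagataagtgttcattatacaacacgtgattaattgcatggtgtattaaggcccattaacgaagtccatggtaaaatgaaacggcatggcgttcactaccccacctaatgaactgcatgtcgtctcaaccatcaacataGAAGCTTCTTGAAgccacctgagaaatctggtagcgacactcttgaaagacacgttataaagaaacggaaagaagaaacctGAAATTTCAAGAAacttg
HSFA7A: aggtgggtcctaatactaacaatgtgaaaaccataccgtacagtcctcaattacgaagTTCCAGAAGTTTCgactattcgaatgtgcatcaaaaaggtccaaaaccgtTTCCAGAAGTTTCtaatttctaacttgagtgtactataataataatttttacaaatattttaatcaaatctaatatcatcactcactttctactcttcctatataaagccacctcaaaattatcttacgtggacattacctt
HSP17.6A: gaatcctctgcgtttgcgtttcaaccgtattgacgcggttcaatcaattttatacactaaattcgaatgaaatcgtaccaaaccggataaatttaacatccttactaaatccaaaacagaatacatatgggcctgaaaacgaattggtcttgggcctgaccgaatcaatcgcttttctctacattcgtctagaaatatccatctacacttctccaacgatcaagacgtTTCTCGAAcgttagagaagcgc

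Counted from the RefSeq start, the element began at position -53 in AT1G53540, at -88 in HSFA2, at -99 and -18 in HSP17.4 and at -192 and -142 in HSFA7A. Of these 4 genes AT1G53540 alone was called on NaCl. HSP17.4 had log2 ratios of 2.67 in WT and 1.63 in 6-6 without a call. HSFA2 and HSFA7A had log2 ratios of -0.17 and -0.27 in WT and -0.49 and -0.07 in 6-6 without a call. The element stood in 1 of the 17 promoters of genes that rose in either line (5.88%) and in 3 of the 55 tested that rose in neither (5.45%). HSP17.4, higher on NaCl but not called, is counted among those 3. With 2 blocks, GAANNTTC or TTCNNGAA, which every 3-block match contains, 16.0% of all promoters and 18 of the 88 (20.5%) had a match. So did 3 of the 10 that rose in both lines and 11 of the 55 tested that rose in neither (20%). Among all tested small HSPs, the class of most genes that rose in both lines, 10 of 32 (31.2%) had one. A match describes letters, not a bound site, and the window follows the RefSeq start, which need not be the start that the files use.

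HSP70 genes were mostly alike in the 4 groups. On NaCl, 2 of 16 tested rose in WT, and 2 rose and 1 fell in 6-6. The called share was 12.5% and 18.8%, below that of all genes (21.8% and 24.1%). The gene called HSP70 (AT3G12580, chromosome 3, 3991261 to 3993792), a heat-inducible cytosolic form, rose from 28.6 to 47.8 FPKM in WT and from 38.7 to 51.9 in 6-6 (log2 ratios 0.74 and 0.42, q = 0.000482 and 0.00154 in the authors' deposited tables). The lines started from different levels: on MS it was at 38.3 FPKM in 6-6 against 28.0 in WT, called higher (log2 ratio 0.45, q = 0.01 in the authors' deposited table). That comparison shares its MS groups with the salt comparisons.

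Hsp70-2 (chromosome 5, 550035 to 552647), another cytosolic form, was at 14.4 FPKM on MS and 13.4 on NaCl in WT, and rose from 16.2 to 23.2 in 6-6 (log2 ratio 0.52, q = 0.000441 in the authors' deposited table). On NaCl it was higher in 6-6 than in WT, at 23.8 against 13.5 FPKM (log2 ratio 0.81, q = 0.00186 in the authors' deposited table), the largest called ratio among heat shock genes in that comparison apart from HSP17.6A. Hsp70-2 lies 1097 bases from HSC70-1 and is 87.2% identical to it in coding sequence, so reads shared with a gene at 884 FPKM could affect it. HSC70-1 itself was at 884 and 957 FPKM in WT and 906 and 925 in 6-6, and was not called. Of the organelle forms, mtHsc70-1 of mitochondria rose from 115 to 142 FPKM in WT (log2 ratio 0.30) and was at 122 and 137 in 6-6. cpHsc70-2 of plastids fell from 86.7 to 61.5 FPKM in 6-6 (log2 ratio -0.50) and was at 79.5 and 68.8 in WT, and it too shares its locus in the files. BIP2 and BIP1, the HSP70 of the endoplasmic reticulum, were at 186, 178, 187 and 170 FPKM and at 179, 164, 183 and 154 FPKM in the group order above. They are 96.8% identical in coding sequence, and neither was called.

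Of the 5 HSP90 genes none was called on NaCl in WT, where 0 had a p-value below 0.05 in the authors' deposited table, and 1 fell in 6-6. This was HSP90.1 (chromosome 5, 21352399 to 21355361), the heat-inducible cytosolic form, at 9.51 FPKM on MS and 7.67 on NaCl in 6-6 (log2 ratio -0.31, q = 0.0286 in the authors' deposited table) and 6.32 and 7.29 in WT. On MS it was higher in 6-6 than in WT, at 9.39 against 6.19 FPKM (log2 ratio 0.60, q = 0.00396 in the authors' deposited table), and this comparison shares the 6-6 MS group. The constitutive HSP81-2 and HSP81-3 were at 205, 203, 207 and 191 FPKM and at 187, 182, 188 and 173 FPKM. Hsp89.1, an HSP90 of mitochondria, ran from 44.6 to 47.5 FPKM and Hsp81.4 from 25.0 to 27.6 FPKM. None of these 4 was called in any comparison, and the 3 HSP81 genes are 94.3% to 95.7% identical in coding sequence.

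Neither the 3 HSP60 genes nor HSP101 were called in any comparison. HSP60 was at 165, 176, 187 and 161 FPKM, HSP60-2 at 62.7, 73.4, 65.0 and 62.7 FPKM and HSP60-3A at 29.7, 33.1, 29.0 and 27.4 FPKM in the group order above. In WT, HSP60-2 had a log2 ratio of 0.23 for NaCl over MS (p = 0.0323 in the authors' deposited table). On NaCl, HSP60-2 and HSP60-3A had log2 ratios of -0.21 and -0.26 for 6-6 over WT with p = 0.034 and 0.013 in the authors' deposited table, short of the q threshold. HSP101, the disaggregase that heat induces strongly, was at 3.71, 3.46, 3.55 and 3.76 FPKM, within a narrow and low range.

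Between the lines few heat shock genes were called. On MS, 3 of 68 tested (4.41%) were higher in 6-6 and none was lower, against 3.02% of all tested genes, 1.13% higher and 1.89% lower. They were HSP70 and HSP90.1, above, and the small HSP AT5G47600. AT5G47600 was at 3.01 FPKM in WT and 6.24 in 6-6 on MS (log2 ratio 1.05, q = 0.0229 in the authors' deposited table). From there it fell on NaCl in 6-6, from 6.31 to 3.46 FPKM (log2 ratio -0.87), while WT was at 3.07 and 2.86. So these 3 genes were higher in 6-6 on MS, and none of them was called between the lines on NaCl. There, AT5G47600 was at 3.54 FPKM in 6-6 against 2.90 in WT, HSP90.1 at 7.84 against 7.38 and HSP70 at 53.0 against 48.4. The higher level of all 3 on MS rests on the 6-6 MS group, the one whose organelle genes stood apart. The fall of AT5G47600 and HSP90.1 and the rise of HSP70 on NaCl in 6-6 rest on it too. The comparison on NaCl does not use that group. On NaCl, 5 of 73 tested (6.85%) were called between the lines, against 6.71% of all genes, 3.04% higher and 3.67% lower. AT2G29500 and Hsp70-2 were higher in 6-6 than in WT, and AT4G02450, HSP17.6A and HSFB2A were lower. AT2G29500 was at 29.3 FPKM in 6-6 and 22.6 in WT (log2 ratio 0.38, q = 0.0219 in the authors' deposited table). AT1G76770, the gene with the lowest ratio on NaCl (log2 -2.50), was at 0.135 against 0.765 FPKM and was not called.

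**Figure D4:**
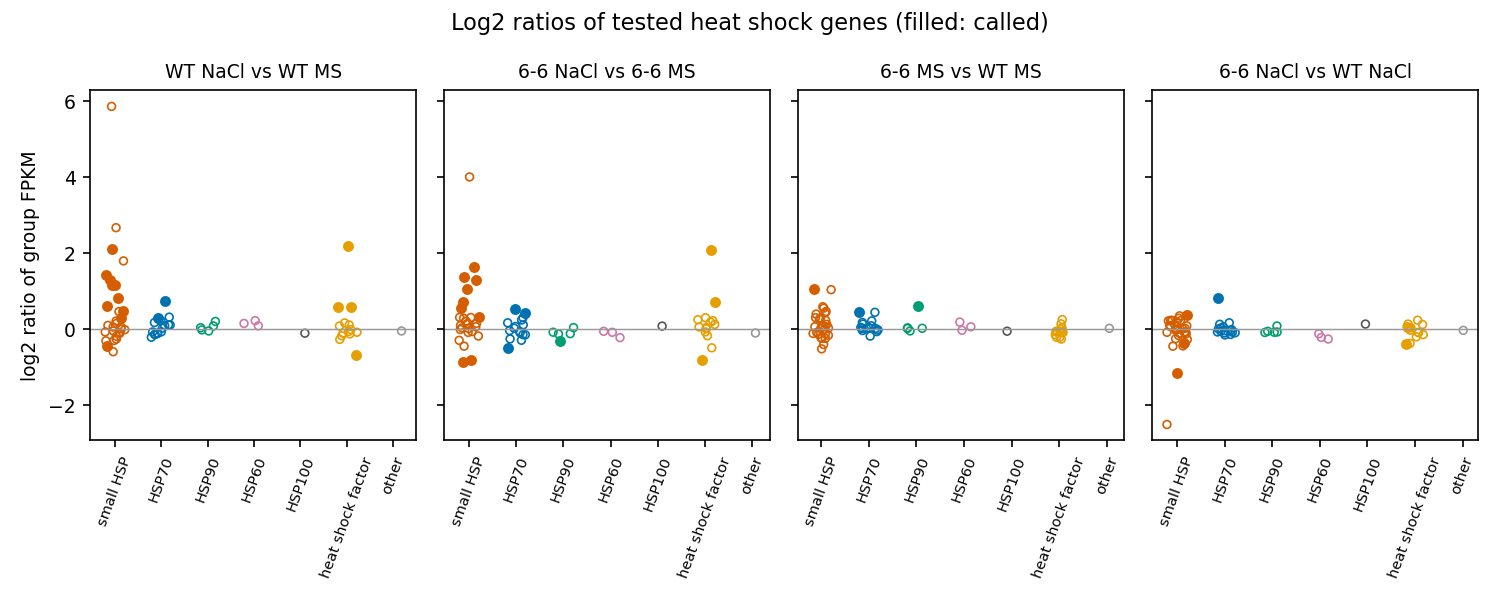
Log2 ratio of the group FPKM for the tested heat shock genes in the 4 comparisons (panels), by subfamily; each point is a gene, filled where the authors' q-value was below 0.05, and HSP17.6A has no point in the salt panels because it is at 0 on MS. The filled points of the salt panels lie mostly among the small HSPs and above 0, and the line panels hold 3 and 5.

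Co-chaperones and other genes of the heat shock response showed no common direction. Of 19 tested genes of this list, 3 rose and 3 fell in WT on NaCl, 31.6% of them against 21.8% of all genes. ROF2, a heat-induced FKBP, rose (log2 ratio 0.50), as did HSA32, a protein of acquired thermotolerance (0.62), and SGT1A, an HSP90 co-chaperone (0.68). HOP3, which links HSP70 to HSP90 (-0.41), and the transcription factors DREB2A (-0.61) and DREB2C (-1.40) fell. In 6-6, 3 of 18 rose, HSA32 (0.48), BAG6 (0.35) and SGT1A (0.44), and HOP3 (-0.51), DREB2A (-0.79) and DREB2C (-0.84) fell, 33.3% of the list against 24.1% of all genes. GOLS1 had the largest ratios of the list on NaCl (2.44 in WT and 2.83 in 6-6) but was not called, and it shares its locus with another gene. Between the lines DREB2A alone of this list was called, higher in 6-6 on MS (0.46). The list leaves out the co-chaperones AT4G02450 and AT3G03773, which are counted above with the small HSPs. AT4G02450 rose in WT on NaCl (0.29) and was called lower in 6-6 than in WT on NaCl (-0.36). AT3G03773 was not called in any comparison, with log2 ratios for NaCl over MS of -0.07 in WT and 0.14 in 6-6. A list of 12 genes for the endoplasmic reticulum held folding proteins and the transcription factors BZIP60 and BZIP28. It leaves out the BIP genes, which are counted above with the HSP70 genes. Of the 12, SDF2 (-0.28) and ERDJ3B (-0.37) fell in WT on NaCl. In 6-6 CNX1 (-0.34) and ERDJ3B (-0.41) fell and BZIP60 rose (0.34). These calls are 16.7% and 25.0% of the 12, against 21.8% and 24.1% of all genes. None of the 12 was called between the lines.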

How the data were processed

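The submitters sequenced RNA of 12 samples. HISAT2, HTSeq and edgeR are named, with build TAIR10, in the submitters' processing notes; tool versions and roles are not given in the sources used here. Per the headers, the 4 deposited tables follow the layout of Cuffdiff gene output, and each compares 1 pair of groups. The authors deposited 1 FPKM per group, a signed test statistic (a score), a p-value and a q-value. The unit FPKM is taken from that layout. The authors' q-values equalled a Benjamini-Hochberg adjustment of their p-values within 5.29e-07, and the smallest deposited p-value is 5e-05. A group's FPKM differ between the 2 authors' tables that hold it by median ratios of 0.979 to 1.02 for the heat shock genes, so comparisons were made within a table.

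Log2 ratios were computed from the group FPKM, second group over first, with Python 3.11.15 and pandas 2.3.3. Since no value of a single sample was used here, no error or depth is given and no test on samples was run. Some calls under other settings came from the deposited p-values or scores adjusted anew, with the scores read as normal deviates. Tests planned on values per sample were replaced by the authors' q-value below 0.05. Positions are TAIR10 as in the files, with 1 added to the start. Promoters and names come from RefSeq (TAIR10.1). Coding identity was aligned with Biopython 1.88. Genes named with values were those called in any table, the 2 most abundant of each subfamily, factors of at least 5 FPKM and those with the largest ratios. Genes named outside this rule were chosen after their values were seen. The members, lists and rule were all chosen with earlier results of these data known.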

Additional observations from a re-analysis of the deposited data

How the results depend on the processing

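Every median log2 ratio of the heat shock genes moved by less than 0.1 when it was centred on all tested genes or computed from log2(FPKM + 1) or log2(FPKM + 0.1). No called ratio changed sign by centring. Adding the same constant to both groups cannot change a sign, so those settings say nothing on it. The counts of calls stayed within 1.5 times with a mean of at least 1 FPKM required, and with 10 genes added that RefSeq names as heat shock genes. With the authors' score read as a normal deviate and adjusted anew, WT on NaCl kept 7 higher and 1 lower, 6-6 on NaCl 3 lower, 6-6 against WT on MS 1 higher, and 6-6 against WT on NaCl 1 higher and 0 lower. With an absolute log2 ratio of at least 1 required, the counts were 7 higher and 0 lower in WT on NaCl, 6 and 0 in 6-6 on NaCl, 1 higher between the lines on MS, and 0 higher and 1 lower between them on NaCl. With q below 0.01, 1 was lower in WT on NaCl, 1 higher between the lines on MS, and 1 higher and 0 lower between them on NaCl. Among genes alone in their locus, 1 was lower in WT on NaCl and 3 in 6-6. Fewer genes pass these rules by construction; the cause of the difference under the normal reading was not tested. No paired analysis was possible because the tables hold 1 value per group, and for that reason samples left out, other scalings and count models were not run. Depth is unknown, and low genes such as HSP17.6II are limited by it.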

Other observations

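Genes that RefSeq lists with heat shock among their synonyms, but whose description in the files does not say so, were added after the data were seen. They were 10 genes, among them HSFB2B, HSFA5, CLPB4 and CR88, the plastid HSP90. None was called in any of the 4 comparisons. CR88 was at 53.6 FPKM on MS and 55.3 on NaCl in WT and at 55.5 and 51.8 in 6-6, and CLPB4, an HSP100 of mitochondria, at 11.6, 10.5, 11.5 and 10.4 FPKM in the same order. HSFA7B was too low to be tested.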
